A study of Homo sapiens with 4 samples.

Results

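Huh1 is an established human hepatocellular carcinoma cell line. Huh1 cells received 15 nM of either CDCA8-1siRNA, an siRNA against CDCA8, or NCsiRNA, the negative control siRNA, and their RNA was sequenced 48 h later as 1 library for each siRNA. The genes described are those with at least 1 RPKM (the reads of a transcript scaled to its length and to all mapped reads) in at least 1 of these 2 libraries, 10940 of the 18398 transcripts listed, and they are called tested genes below. The series also holds 2 libraries of Huh7 hepatocellular carcinoma cells given the same siRNAs, in which 11565 genes met that minimum. No library has a replicate, so the spread between cultures was not measured and no difference was tested. A difference below is log2(RPKM + 1) with CDCA8-1siRNA minus log2(RPKM + 1) with NCsiRNA, and the added 1 makes the differences of low genes smaller than their RPKM ratios. Pairs of levels are given with NCsiRNA first and CDCA8-1siRNA second, followed by the difference in brackets. Only 1 siRNA against CDCA8 was sequenced, so the response to loss of CDCA8 and any other response to that siRNA cannot be told apart. In RNA from a whole culture, fewer cells of a kind and less RNA per cell cannot be told apart either.

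CDCA8 encodes borealin, which joins the kinase AURKB, the scaffold INCENP and survivin (encoded by BIRC5) in the chromosomal passenger complex. The complex gathers at centromeres early in mitosis, where it helps to correct faulty attachments of microtubules, and later moves to the spindle midzone to support cytokinesis. Hepatocellular carcinoma lines that keep hepatocyte features continue to make liver transcription factors such as HNF4A and secreted plasma proteins such as albumin.

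From its low values, the RPKM scale was estimated to rest on 13384836 mapped reads with NCsiRNA and 13193713 with CDCA8-1siRNA, and 3169 and 2982 transcripts were at 0. With the transcript lengths used here, the reads worked out for 17768 transcripts summed to 15064400 and 14695831, more than these totals. The read numbers and intervals below are therefore approximate. All 12 hepatocyte markers examined were tested genes, and their summed level was 5355 RPKM with NCsiRNA and 4119 RPKM with CDCA8-1siRNA. Of 10 fibroblast or stellate cell markers only LUM reached 1 RPKM, and the other 9 summed to 0.261 and 0.313 RPKM, with 1 of them at 0 in both libraries. None of 7 endothelial markers reached 1 RPKM, their sums were 0.118 and 0.134 RPKM, and 4 were at 0 in both libraries. Of 8 immune markers only CD68 reached 1 RPKM, at 23.3 and 16.5 RPKM.

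Most genes had similar levels in both libraries. The median difference over the 10940 genes was 0.02, with quartiles at -0.11 and 0.17 and an SD of 0.26, and 6025 genes (55.1%) were higher with CDCA8-1siRNA by any amount. At least 2-fold differences were found for 35 higher genes (0.32% of those tested) and 19 lower genes (0.174%). At 1.5-fold there were 271 higher genes (2.48%) and 139 lower genes (1.27%). After quantile normalization the 1.5-fold counts were 224 higher and 184 lower, so the excess of higher genes was smaller on that scale. On the same scale the median difference was -0.01 and 48.6% of genes were higher by any amount.

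The spread of the differences narrowed with level, from an SD of 0.31 under 2 RPKM to 0.20 at 100 RPKM or more, where read sampling alone would give a median SD of 0.16 and 0.03. The direction varied with level, since the share of genes higher with CDCA8-1siRNA was 60.1% under 2 RPKM and 39.1% at 100 RPKM or more. It also varied with length, with a median difference of -0.02 among the 2723 genes with the shortest transcripts and 0.07 among the 2720 with the longest.

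**Figure D1:**
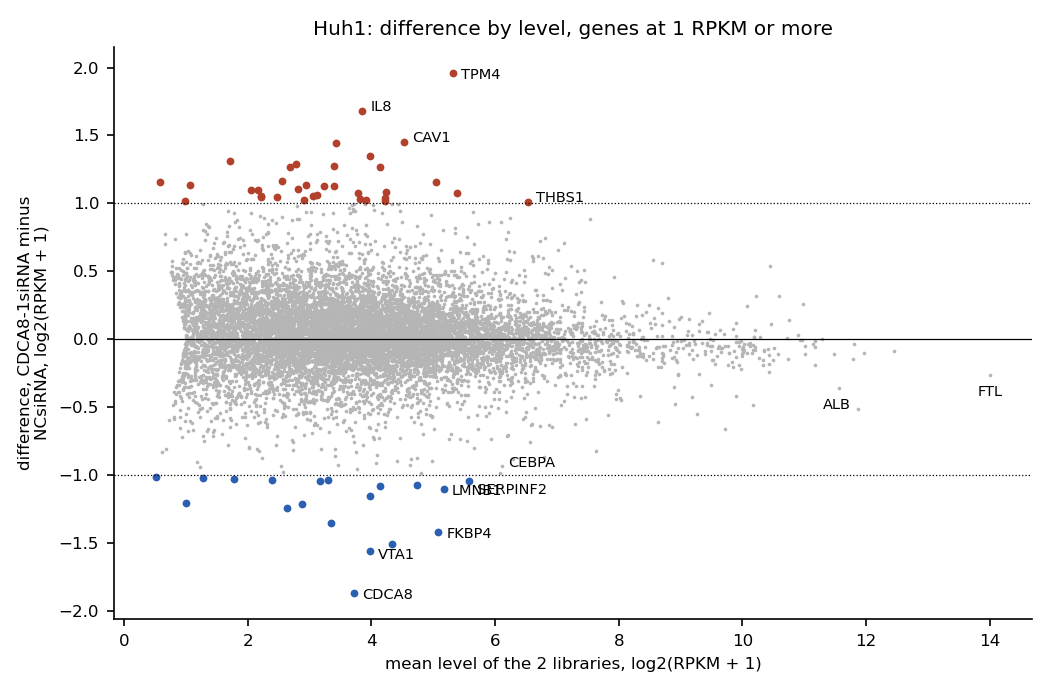
Difference between the Huh1 libraries (CDCA8-1siRNA minus NCsiRNA, log2(RPKM + 1), vertical axis) against the mean level of the pair (log2(RPKM + 1), horizontal axis) for 10940 genes. Red points are the 35 genes at least 2-fold higher and blue points the 19 at least 2-fold lower, with dotted lines at the 2-fold limits. The points past 2-fold lie at low and middle levels, and the most abundant genes, such as FTL and ALB, lie below 0.

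CDCA8 (chr1:37692418-37709719 in the GENCODE annotation of GRCh38) was at 24.1 RPKM with NCsiRNA and 5.86 RPKM with CDCA8-1siRNA, the lowest difference of all tested genes (-1.87). The ratio of the RPKM values was 0.243, with an exact Clopper-Pearson 95% interval of 0.207 to 0.285. This interval and those below cover counting error only and rest on transcript lengths that may differ from those the authors used. The partners of CDCA8 had much smaller differences. AURKB was at 50.6 and 43.6 RPKM (-0.21), INCENP at 15.9 and 13.8 RPKM (-0.19) and BIRC5 at 26.6 and 30.8 RPKM (0.21). The genes that bring the complex to centromeres, among them GSG2 (haspin, which phosphorylates histone H3 there), BUB1, SGOL1 and SGOL2, had differences between -0.14 (SGOL2) and 0.15 (GSG2). Apart from CDCA8, none of the 10 tested genes in this list reached 1.5-fold.

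The 18 other genes at least 2-fold lower had varied functions. VTA1, a cofactor of the ATPase VPS4 that recycles the membrane-cutting ESCRT-III machinery, was at 26.0 RPKM with NCsiRNA and 8.15 RPKM with CDCA8-1siRNA (-1.56, ratio 0.314, interval 0.289 to 0.341). None of the other 14 tested ESCRT genes reached 1.5-fold, and the median of the list was 0.04. FKBP4, an immunophilin that works with HSP90 on steroid receptors, was at 54.2 and 19.6 RPKM (-1.42). The median over 42 chaperone genes was -0.04, and 0.01 after quantile normalization.

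Several lower genes encode proteins of chromatin, the nuclear envelope or the spindle. SETD8, the methyltransferase that adds a single methyl group to lysine 20 of histone H4, was at 15.2 and 5.35 RPKM (-1.35), and its reads may be shared with near-identical copies. LMNB1, the lamin B1 of the nuclear lamina, was at 51.6 and 23.5 RPKM (-1.10). The other lamin genes LMNB2 (0.14) and LMNA (0.19) did not share this direction, and none of the other 13 lamina and inner envelope genes reached 1.5-fold. NUSAP1, a microtubule-binding spindle protein, was at 37.7 and 17.4 RPKM (-1.07).

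Membrane proteins and proteins with roles in assembly or sorting were also in the lower set. TMEM176B, a membrane protein that spans it several times, was at 32.9 and 10.9 RPKM (-1.51), and its overlapping neighbour TMEM176A was at 28.1 and 14.7 RPKM (-0.89). Reads from overlapping genes may be shared between them. CKAP4, an endoplasmic reticulum membrane protein, was at 22.4 and 9.54 RPKM (-1.15). CCDC115, a V-ATPase assembly factor, was at 13.1 and 5.86 RPKM (-1.04), and COMMD1, which acts in copper handling and endosomal sorting, was at 6.5 and 2.66 RPKM (-1.04). None of the other 13 tested genes of the COMMD list reached 1.5-fold.

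Genes of hepatocyte metabolism and secretion followed. SLC25A15, the mitochondrial ornithine carrier of the urea cycle, was at 8.57 and 3.04 RPKM (-1.24). ALDH8A1, a dehydrogenase of tryptophan breakdown, was at 10.2 and 3.80 RPKM (-1.22). SLC6A9, a glycine transporter, was at 3.89 and 1.39 RPKM (-1.03). SERPINF2, the inhibitor of plasmin in plasma, was at 67.6 and 32.2 RPKM (-1.05).

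The lower genes also included KLF15, a transcription factor of liver and muscle metabolism, at 2.43 and 0.690 RPKM (-1.02), S100A9, a calcium-binding protein best known from neutrophils, at 11.9 and 5.25 RPKM (-1.05), and a pair of histone genes. The histone genes have near-identical copies and rest on few reads. HIST1H3H was at 2.05 and 0.320 RPKM on about 34 and 5 reads. HIST1H4D was at 1.02 and 0 RPKM, and since its control value rests on about 4 reads while a value of 0 allows up to 3, no fold is given for it. For the 18 lower genes other than HIST1H4D the interval of the ratio lay below 1. These genes were chosen by the same values, so the intervals give no separate support. The members just inside the 2-fold limit were HIST1H4D (-1.01) and KLF15 (-1.02). The genes just outside it were CEBPA (-0.99), CCNC (-0.98), RASL11A (-0.98), EFNA1 (-0.96) and TMEM144 (-0.94).

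The 35 genes at least 2-fold higher were led by TPM4 (chr19:16067021-16103005), a tropomyosin that runs along actin filaments, at 19.1 RPKM with NCsiRNA and 77.3 RPKM with CDCA8-1siRNA (1.96, ratio 4.04, interval 3.71 to 4.40). IL8, a chemokine that attracts neutrophils, was at 7.01 and 24.7 RPKM (1.68). CAV1, the main coat protein of caveolae, was at 12.9 and 37.2 RPKM (1.45). These 3 genes had the largest differences of the set. NTN4, a netrin of basement membranes, was at 5.52 and 16.7 RPKM (1.44). LUM, a proteoglycan that organises collagen fibres, was at 12 and 25.6 RPKM (1.04), while the other fibroblast markers stayed under 1 RPKM as given above.

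Secreted and early response genes formed a further group. CYR61, a matricellular protein, was at 8.83 and 24.0 RPKM (1.35), and THBS1, thrombospondin 1, was at 64.0 and 129.9 RPKM (1.01). EREG, a ligand of the EGF receptor, was at 5.74 and 15.3 RPKM (1.28). DKK1, a secreted inhibitor of Wnt signalling, was at 0.414 and 2.10 RPKM (1.13), so its level was low in both libraries. FOSL1, a subunit of the transcription factor AP-1, was at 12 and 26.4 RPKM (1.08), and PLK2, a polo-like kinase, was at 27.8 and 59.8 RPKM (1.08). ANKRD1, an ankyrin repeat protein of the nucleus and of muscle sarcomeres, was at 10.3 and 26.2 RPKM (1.27). CDKN2B, which encodes the CDK4 and CDK6 inhibitor p15, was at 8.81 and 19 RPKM (1.03).

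Genes of epithelial structure, trafficking and the cytoskeleton followed. KRT80, a keratin, was at 12 and 25.4 RPKM (1.02), and KRT4, another keratin, was at 0.383 and 1.8 RPKM (1.02). CLDN2, a pore-forming claudin of tight junctions, was at 4.18 and 10.4 RPKM (1.14), and EMP1, an epithelial membrane protein, was at 8.53 and 19.1 RPKM (1.08). RAB27B, a GTPase of secretory vesicles, was at 5.35 and 12.9 RPKM (1.13). BICD2, an adaptor between dynein and its cargo, was at 4.75 and 11 RPKM (1.06), and NEXN, an actin-binding protein, was at 2.23 and 5.68 RPKM (1.05). Each of these was low or moderate in the control library. NOSTRIN, which binds endothelial nitric oxide synthase, was at 5.04 and 11.6 RPKM (1.06).

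The other members had varied functions. SAMD4A, a translational repressor that binds RNA, was at 3.80 and 9.31 RPKM (1.10). FABP6, the bile acid binding protein of the ileum, was at 2.84 and 6.95 RPKM (1.05). Zinc finger genes supplied 3 members, namely ZNF253 (1.09 and 4.17 RPKM, 1.31), ZNF257 (2.91 and 7.76 RPKM, 1.16) and ZNF616 (1.84 and 5.07 RPKM, 1.10). TMEM93, TMEM139, TMEM156, TMED8, CCDC165, MYEOV and KRTAP19-5 had differences from 1.02 (TMEM156) to 1.29 (TMED8), and TMEM93 was the most abundant of them at 21.0 and 48.1 RPKM. TFF1, a trefoil peptide of gastric mucus, was at 0 and 1.23 RPKM on about 9 reads, at least 2.99-fold higher when the control value of 0 is set at its upper limit of 3 reads. The lower end of the counting interval, which also covers the error of the 9 reads, was 1.99-fold.

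The interval of the ratio lay above 1 for all 35 higher genes. They were chosen by the same values, so this gives no separate support. Their control levels ran from 0 to 64.0 RPKM with a median of 5.35 RPKM, and those of the 19 lower genes from 1.02 to 67.6 RPKM with a median of 15.2 RPKM. The control level is part of the rule that chose both lists, so these levels are not compared. The members just inside the 2-fold limit were THBS1 (1.01) and KRT80 (1.02), and the genes just outside it were CTGF, ARL14 and EPB41L1 (each 1.00 after rounding), OGFR (0.99) and KLF6 (0.99).

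**Figure D2:**
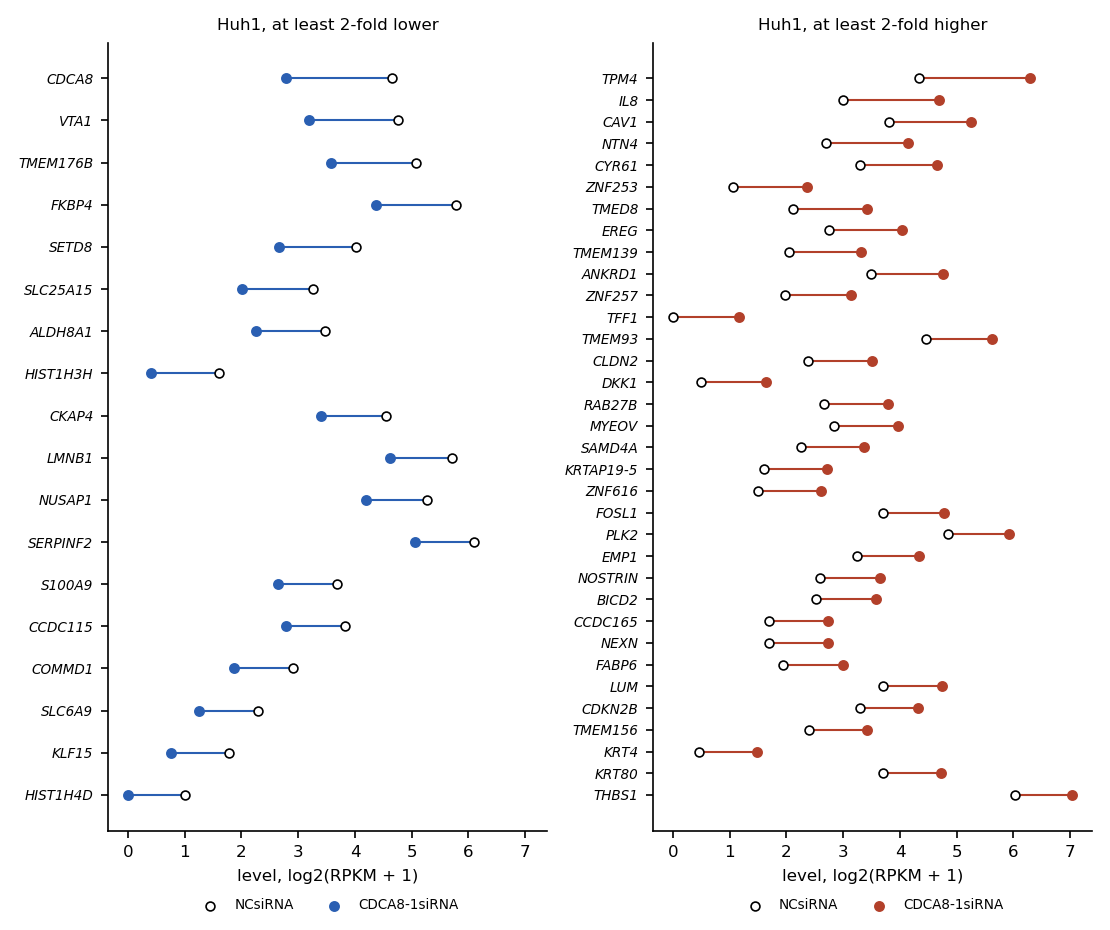
Level (log2(RPKM + 1), horizontal axis) of 18 genes at least 2-fold lower (left) and 34 at least 2-fold higher (right) in Huh1, open circles for NCsiRNA and filled circles for CDCA8-1siRNA, 1 library each. CDCA8 and TPM4 span the widest distances, and only TFF1 (control) and HIST1H4D (CDCA8-1siRNA) touch 0.

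Gene lists for pathways, complexes, families and cell types were described by their counts and medians, and 76 lists had at least 4 tested genes. The median of 10 lists lay above the upper quartile of all genes, and that of 14 lay below the lower quartile. Some lists share genes, such as 11 of the 20 tested MAPK feedback genes that are also in the list of DUSP genes.

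**Figure D3:**
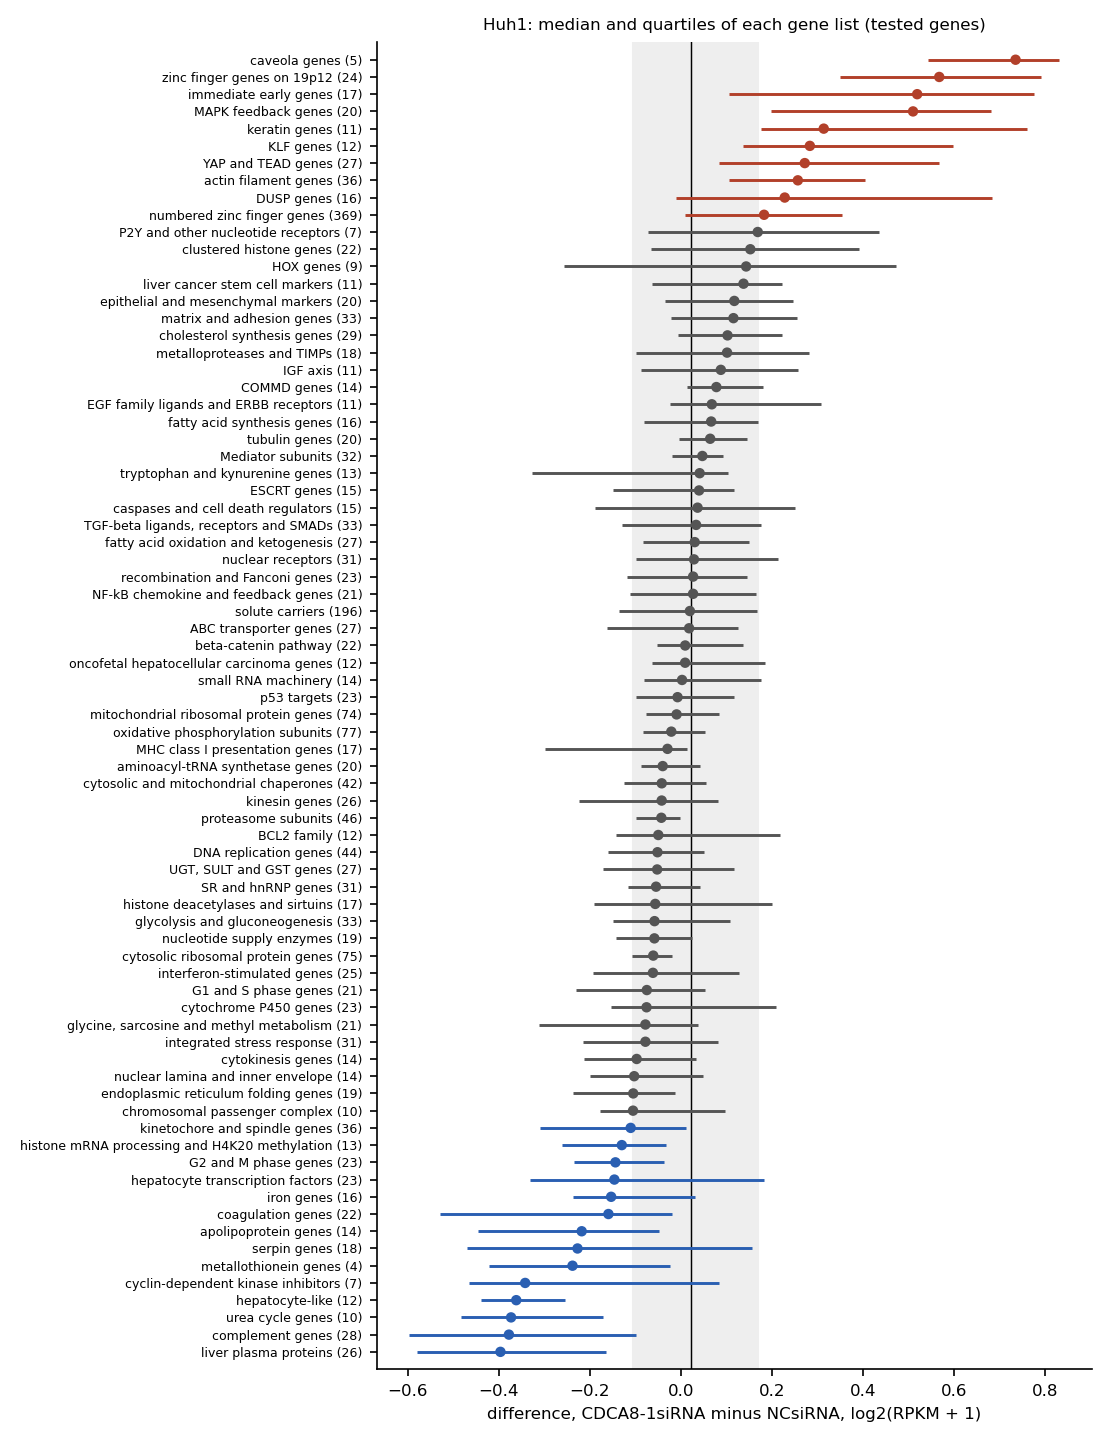
Median (point) and quartiles (bar) of the difference in Huh1 (log2(RPKM + 1)) for 76 gene lists, with the number of tested genes in brackets. The grey band spans the quartiles of all 10940 genes and the vertical line is their median. Caveola, 19p12 zinc finger, immediate early and MAPK feedback genes are at the top, and plasma protein, complement, urea cycle and hepatocyte marker genes at the bottom.

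YAP and TAZ (encoded by YAP1 and WWTR1) are coactivators that bind TEAD factors and raise genes of adhesion and growth when cells are spread or the Hippo kinases are inactive. Among 16 tested targets, 14 were higher with CDCA8-1siRNA and 6 at least 1.5-fold higher, with a median of 0.40, against 55.1%, 2.48% and 0.02 over all tested genes. CYR61, ANKRD1 and THBS1 were among the 6. CTGF, a matricellular protein like CYR61, was at 14.2 and 29.4 RPKM (1.00). NT5E, the ectoenzyme CD73, was at 7.29 and 13.3 RPKM (0.79), and AMOTL2, an inhibitor of YAP, was at 6.47 and 11.3 RPKM (0.73). Targets near their control level were AXL (0.17), FJX1 (0.07) and GADD45A (-0.09), and DLC1 had the lowest difference (-0.22).

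The factors and kinases of the pathway differed less than its targets. YAP1 was at 20.9 and 18.2 RPKM (-0.20) and WWTR1 at 4.66 and 6.01 RPKM (0.31). LATS2, a Hippo kinase, was at 3.15 and 4.76 RPKM (0.47). TEAD2 was the only one of 11 past 1.5-fold, at 18.8 and 29.1 RPKM (0.61).

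Sequences upstream of 5 of the higher genes show how the short motifs bound by TEAD (GGAATG, read as CATTCC on the other strand) and by AP-1 (TGANTCA on either strand) lie before genes with differences near or above 1. They are the 250 bases before the start of the gene in RefSeq, on GRCh38.p14 and written 5′ to 3′ on the strand of the gene, with motifs in capitals. All 5 genes shown hold a motif, and they are not typical of the higher genes. TPM4, CAV1 and NTN4, which are among the genes with the largest differences, hold neither motif in this window. CTGF has 3 TEAD motifs (chr6:131951373-131951622, minus strand). ANKRD1 has 2 TEAD motifs and 1 AP-1 motif (chr10:90921088-90921337, minus strand). THBS1 has 1 TEAD motif (chr15:39580829-39581078, plus strand). EMP1 has 2 AP-1 motifs (chr12:13196476-13196725, plus strand) and IL8 has 1 AP-1 motif (chr4:73740319-73740568, plus strand).
CTGF: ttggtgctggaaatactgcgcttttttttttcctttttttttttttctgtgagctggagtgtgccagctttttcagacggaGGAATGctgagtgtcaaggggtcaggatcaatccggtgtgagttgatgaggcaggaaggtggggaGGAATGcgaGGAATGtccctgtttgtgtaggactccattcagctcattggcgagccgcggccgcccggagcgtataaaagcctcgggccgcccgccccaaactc
ANKRD1: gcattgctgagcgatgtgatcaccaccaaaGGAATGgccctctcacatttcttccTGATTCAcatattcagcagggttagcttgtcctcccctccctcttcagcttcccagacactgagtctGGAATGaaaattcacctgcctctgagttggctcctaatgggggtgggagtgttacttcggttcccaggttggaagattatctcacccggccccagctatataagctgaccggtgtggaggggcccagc
THBS1: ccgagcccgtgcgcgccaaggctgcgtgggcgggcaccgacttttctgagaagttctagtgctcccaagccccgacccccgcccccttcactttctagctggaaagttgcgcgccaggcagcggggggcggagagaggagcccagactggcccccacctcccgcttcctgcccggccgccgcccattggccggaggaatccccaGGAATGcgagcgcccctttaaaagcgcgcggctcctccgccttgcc
EMP1: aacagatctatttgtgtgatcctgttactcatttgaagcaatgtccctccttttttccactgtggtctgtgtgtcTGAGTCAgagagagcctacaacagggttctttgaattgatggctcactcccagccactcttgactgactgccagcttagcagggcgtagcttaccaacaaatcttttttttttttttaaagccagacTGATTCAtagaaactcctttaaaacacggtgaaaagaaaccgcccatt
IL8: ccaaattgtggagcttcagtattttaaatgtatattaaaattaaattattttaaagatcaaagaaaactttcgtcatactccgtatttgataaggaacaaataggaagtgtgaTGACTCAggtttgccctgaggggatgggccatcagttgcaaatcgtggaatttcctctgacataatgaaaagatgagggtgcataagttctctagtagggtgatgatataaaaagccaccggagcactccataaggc

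The TEAD motif stood in 5 of the 11 YAP and TEAD targets with an entry (45.5%), in 7 of the 27 genes at least 2-fold higher with an entry (25.9%) and in 3 of the 16 at least 2-fold lower (18.8%). It stood in 9.19% of 9057 tested genes and 11.9% of all 35116 promoters in the table. The target list holds genes already taken as YAP and TEAD targets, so its share of motifs gives no separate support. ANKRD1 and THBS1, which hold the TEAD motif, are counted both among the targets and among the 2-fold higher genes. The AP-1 motif stood in 6 of the 27 higher genes (22.2%) and in 0 of the 16 lower genes, against 3.61% of tested genes and 6.57% of all promoters. Among 216 genes at least 1.5-fold higher, the share with the TEAD motif was 8.8% and that with the AP-1 motif 10.6%. The shares of the larger set were thus below all tested genes for TEAD and above them for AP-1. A match is a description of the letters in this window, and none was tested as a binding site.

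Immediate early genes are switched on soon after growth factors or stress reach a cell, many through the MAPK pathway, whose own inhibitors follow as feedback. Of 17 tested immediate early genes, 8 passed 1.5-fold on the higher side and 1 on the lower side, with a median of 0.52. The shares over all tested genes were 2.48% and 1.27%. Among AP-1 subunits, FOS was at 1.73 and 3.83 RPKM (0.82) and JUN at 15.5 and 25.5 RPKM (0.68). ATF3 (0.61) was also past 1.5-fold, and JUND (0.52), FOSL2 (0.44) and JUNB (-0.07) were not. KLF6, a zinc finger factor of early responses, was at 9.58 and 20.1 RPKM (0.99). IER3, which acts on ERK signalling, was at 26.1 and 46.3 RPKM (0.80), and MAFF, a small MAF factor, was at 2.19 and 4.46 RPKM (0.78). The lower gene was ZFP36L2, which promotes decay of AU-rich mRNAs, at 16.1 and 9.12 RPKM (-0.76).

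Of 20 tested MAPK feedback genes, 7 passed 1.5-fold on the higher side and 1 on the lower side, beside 2.48% and 1.27% of all tested genes. The median of the list was 0.51. The DUSP phosphatases, which remove phosphate from MAP kinases, lay on both sides. DUSP5 was at 14.8 and 29.5 RPKM (0.95), DUSP4 at 0.931 and 2.31 RPKM (0.78) and DUSP6 at 13.6 and 22.4 RPKM (0.68). DUSP9 was the lower gene, at 35.2 and 18.7 RPKM (-0.88). ETV4, an ETS factor downstream of ERK, was at 1.69 and 3.33 RPKM (0.69). SPRED2, an inhibitor of the pathway, was at 9.51 and 15.9 RPKM (0.68), while SPRY2, another inhibitor, was at 4.43 and 3.13 RPKM (-0.40).

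In the EGF family EREG stood apart from the other 4 tested ligands, whose differences ran from -0.01 (HBEGF) to 0.09 (NRG1). The receptor EGFR was at 22.0 and 30.9 RPKM (0.47) and ERBB3 was at 36.6 and 28.2 RPKM (-0.36). ERRFI1, the feedback inhibitor MIG6 of these receptors, was at 58.5 and 88.7 RPKM (0.59). Among 21 NF-kB chemokine and feedback genes only IL8 passed 1.5-fold. The chemokine CXCL2 was at 1.43 and 2.43 RPKM (0.50), and TNFAIP3, the inhibitor A20, was at 4.28 and 3.46 RPKM (-0.25).

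Actin filament genes were mostly higher, by small amounts. Of 36 tested genes, 32 were higher, 5 of them at least 1.5-fold, and none was 1.5-fold lower, with a median of 0.26. Over all tested genes 55.1% were higher and 2.48% at least 1.5-fold higher. TPM4 differed more than the other tropomyosins TPM1 (0.27), TPM2 (0.19) and TPM3 (0.24). FHL2, a LIM protein of focal adhesions, was at 5.74 and 11.8 RPKM (0.92). FLNA, a filamin that crosslinks actin, was at 102 and 162 RPKM (0.66). ACTB, the main actin gene of these cells, was at 1378 and 1713 RPKM (0.31), and ZYX, a focal adhesion protein, had the lowest difference of the list (-0.24).

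Caveolae are membrane pits built from caveolins and cavins, and 4 of 5 tested caveola genes were higher, beside 55.1% of all tested genes. After CAV1, CAV2 was at 19 and 34.5 RPKM (0.83). The cavin gene SDPR was at 15.8 and 27.0 RPKM (0.74) and the cavin gene PTRF at 40.6 and 59.6 RPKM (0.54). PACSIN2, which bends membranes, was lower at 38.4 and 26.9 RPKM (-0.50). CAV1 and CAV2 are neighbours on chromosome 7, 16244 bases apart in GRCh38.

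Keratins were mostly higher. Of 11 tested keratin genes 4 were at least 1.5-fold higher and none was lower by as much, beside 2.48% and 1.27% of all tested genes. After KRT4 and KRT80, KRT20 was at 0.828 and 2.18 RPKM (0.80) and KRT19, a marker of bile duct and progenitor cells, was at 12 and 20.5 RPKM (0.72). The hepatocyte keratins KRT18 (986 and 1169 RPKM, 0.25) and KRT8 (1360.3 and 1467 RPKM, 0.11) differed less. The others lay between -0.08 (KRT222) and 0.41 (KRT17), with KRT7 at -0.05, KRT10 at 0.30 and KRT23 at 0.31.

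Of 12 tested KLF transcription factors, 3 were at least 1.5-fold higher, namely KLF6, KLF2 (0.85) and KLF5, a factor of epithelial growth, at 23.1 and 38.2 RPKM (0.70). KLF15 was the only one at least 1.5-fold lower. Among all tested genes 2.48% were at least 1.5-fold higher and 1.27% lower. KLF7 (0.56), KLF11 (0.37), KLF10 (0.29), KLF4 (0.28), KLF16 (0.17), KLF3 (0.15), KLF12 (0.11) and KLF13 (-0.01) lay between.

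Zinc finger genes of the KRAB type, many of which repress transposable elements, form a dense cluster on chromosome 19p12. All 24 tested genes of the cluster were higher with CDCA8-1siRNA (23 of 24 after quantile normalization), 11 of them at least 1.5-fold, with a median of 0.57. After ZNF253 and ZNF257, ZNF208 was at 3.29 and 6.98 RPKM (0.90), ZNF486 at 1.42 and 3.31 RPKM (0.83) and ZNF681 at 0.883 and 2.27 RPKM (0.80). ZNF682 (0.05) and ZNF90 (0.08) differed least.

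The 345 tested numbered zinc finger genes outside the cluster had a median of 0.16, so both sets were above the median of all genes. Of these 345 genes 11 were at least 1.5-fold higher and 0 lower. That is near the 2.48% of all tested genes that were 1.5-fold higher, while 1.27% were lower. By any amount, 257 of the 345 were higher, beside 55.1% of all tested genes. The cluster genes are low, with a median control level of 2.08 RPKM, and 6 of the 24 are among the 2720 genes with the longest transcripts. Those of the 2720 under 10 RPKM had a median difference of 0.08, and the part of level and length in the values of the cluster was not tested. The cluster genes share sequence, so reads may have been divided among them and the values of single members are uncertain.

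Hepatocyte genes were mostly lower. CEBPA, a factor that maintains hepatocyte differentiation, was at 94.4 and 47.2 RPKM (-0.99). NR1H4, the bile acid receptor FXR, was at 41.9 and 22.1 RPKM (-0.89), and HNF4A, a central hepatocyte regulator, was at 86.1 and 59.1 RPKM (-0.53). Of 23 tested factors 15 were lower, 2 of them at least 1.5-fold, and none was 1.5-fold higher, with a median of -0.15. Of all 10940 tested genes 4915 were lower, 1.27% were at least 1.5-fold lower and 2.48% at least 1.5-fold higher. ONECUT1 was at 9.66 and 6.85 RPKM (-0.44). CEBPD, an acute phase factor, was at 7.88 and 11.7 RPKM (0.51), and NR0B2, the corepressor SHP that FXR raises, was at 5.70 and 8.47 RPKM (0.50), both on the higher side. FOXA1 (0.26) and FOXA2 (-0.16), which open liver enhancers, lay on either side of 0.

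Secreted liver proteins were lower in most cases. Of 26 tested plasma protein genes, 22 were lower, 6 of them at least 1.5-fold, with a median of -0.40. Of all 10940 tested genes 4915 were lower by any amount, and 1.27% were at least 1.5-fold lower. KNG1, kininogen, was at 5.37 and 2.48 RPKM (-0.87), and GC, the vitamin D carrier, was at 148 and 80.7 RPKM (-0.87). HP, haptoglobin, was at 13.4 and 6.91 RPKM (-0.86). The orosomucoid genes were lower too, ORM1 at 261 and 148 RPKM (-0.82) and ORM2 at 122 and 71.6 RPKM (-0.76). HP with HPR, and ORM1 with ORM2, are adjacent near-identical pairs whose reads may be shared. FGF19, a hormone that restrains bile acid synthesis, was the only one at least 1.5-fold higher, at 0.210 and 1.06 RPKM (0.77). Albumin, encoded by ALB and the most abundant of these, was at 3447 and 2684 RPKM (-0.36, and -0.13 after quantile normalization). Transferrin, encoded by TF, was at 675 and 503 RPKM (-0.43). AFP, alpha-fetoprotein, was at 24.8 and 27.5 RPKM (0.14), the only hepatocyte marker of 12 that was higher.

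Of 28 tested complement genes, 8 were at least 1.5-fold lower and 0 higher, against 1.27% and 2.48% of all tested genes. The median was -0.38. C3, the central component, was at 119 and 76.7 RPKM (-0.62), and C5 was at 20.2 and 12.3 RPKM (-0.67). CD46, a membrane regulator that protects host cells, was at 105 and 56.5 RPKM (-0.88), whereas CD59, another such regulator, was at 14.7 and 17.8 RPKM (0.26). SERPING1, the inhibitor of C1, was at 9.42 and 5.45 RPKM (-0.69).

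Clotting factors were mostly lower. Of 11 tested factors 10 were lower, beside 4915 of all 10940 tested genes, with a median of -0.46. F12 was at 4.84 and 2.33 RPKM (-0.81) and F7 at 2.44 and 1.14 RPKM (-0.68). FGG, a fibrinogen chain, was at 145 and 93.6 RPKM (-0.63). F3, the tissue factor on cell surfaces and also one of the YAP and TEAD targets, was the exception at 6.63 and 8.29 RPKM (0.28). Inhibitors and fibrinolysis genes were spread on both sides of 0, from SERPINF2 to PROCR, the protein C receptor, at 14 and 21.0 RPKM (0.56). Further serpins, SERPINF1 at 10.3 and 6.18 RPKM (-0.65) and antithrombin (SERPINC1) at 6.92 and 4.55 RPKM (-0.51), were lower.

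Apolipoproteins had a median of -0.22 over 14 tested genes. APOC3 was at 5.05 and 2.42 RPKM (-0.82), APOB at 217 and 144 RPKM (-0.59) and APOA1 at 43.0 and 30.7 RPKM (-0.47). APOA2, the most abundant, was higher at 1072 and 1336 RPKM (0.32). The summed level of the list was 1893 RPKM with NCsiRNA and 2008 RPKM with CDCA8-1siRNA, the opposite direction to its median.

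**Figure D4:**
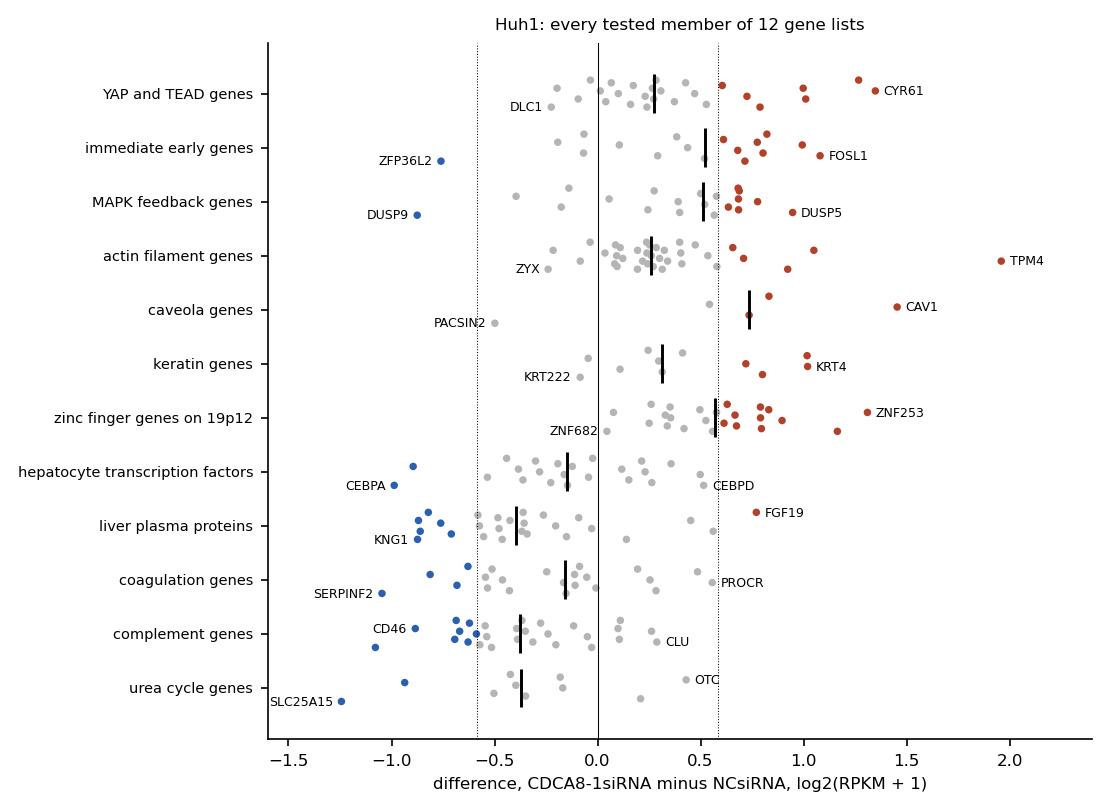
Difference in Huh1 (log2(RPKM + 1), horizontal axis) of every tested member of 12 gene lists, 1 point a gene, with the list's median as a black bar and dotted lines at 1.5-fold. Red points are at least 1.5-fold higher and blue points at least 1.5-fold lower, and an outer gene on each side is named. All 24 genes of the 19p12 cluster lie above 0 (23 after quantile normalization), and most plasma protein, complement and urea cycle genes lie below it.

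The urea cycle turns ammonia into urea in hepatocytes. Of 10 tested genes 8 were lower, beside 4915 of all 10940 tested genes, with a median of -0.37. After SLC25A15, CPS1, the enzyme of the first step, was at 95 and 49.2 RPKM (-0.94). ASS1, which joins citrulline to aspartate, was at 28.7 and 19.9 RPKM (-0.50), and ARG1, which releases urea, was at 1.39 and 0.786 RPKM (-0.42). OAT (-0.40), SLC25A13 (-0.35), ASL (-0.18) and ARG2 (-0.17) were lower by less. OTC, the enzyme that makes citrulline, was at 1.86 and 2.85 RPKM (0.43), and ODC1, which makes polyamines, was at 0.21.

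Amino acid breakdown showed single genes rather than whole lists on the lower side. In tryptophan metabolism AFMID was at 27.3 and 16.1 RPKM (-0.73) and ACMSD at 14.9 and 9.03 RPKM (-0.67), with ALDH8A1 the third gene at least 1.5-fold lower. TDO2 (0.45) and KMO (0.41) were on the higher side, and the median over 13 genes was 0.04 (-0.01 among genes at 5 RPKM or more). SARDH, sarcosine dehydrogenase, was at 4.33 and 2.05 RPKM (-0.80), beside the glycine transporter SLC6A9. MAT1A, the liver enzyme that makes S-adenosylmethionine, was at 8.23 and 5.70 RPKM (-0.46).

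Genes of glucose and lipid handling had medians near 0 with a few exceptions. SLC2A2, the hepatocyte glucose carrier GLUT2, was at 11 and 5.82 RPKM (-0.81), and MLXIPL, the glucose-sensing factor ChREBP, was at 7.61 and 4.09 RPKM (-0.76). PGK1, a glycolytic enzyme, was at 375 and 280.3 RPKM (-0.42). Cholesterol synthesis and uptake genes had a median of 0.10, and 21 of 29 were higher, beside 55.1% of all tested genes. HMGCS1, an early enzyme of the pathway, was at 77.8 and 119 RPKM (0.61). ABCA1, which exports cholesterol, was lower at 4 and 2.01 RPKM (-0.73).

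Enzymes of drug, hormone and bile acid metabolism differed one by one. CYP26A1, which breaks down retinoic acid, was at 4.69 and 2.72 RPKM (-0.61), while CYP26B1, its relative with the same substrate, was at 4.24 and 8.67 RPKM (0.88). CYP27A1, a bile acid synthesis enzyme, was at 17.1 and 11.1 RPKM (-0.58). SULT2A1, a sulfotransferase of steroids and bile acids, was at 2.11 and 0.890 RPKM (-0.72), and UGT2B4, a glucuronosyltransferase, was at 492 and 322 RPKM (-0.61). Of 23 cytochrome P450 genes 1 was at least 1.5-fold higher and 1 lower, and of 27 UGT, SULT and GST genes 2 were lower. Of 16 tested iron genes 11 had differences below 0, beside 4915 of all 10940 tested genes, with a median of -0.15, and none passed 1.5-fold. SLC40A1, the iron exporter ferroportin, was at 342 and 505 RPKM (0.56), and HMOX1, which breaks down haem, was at 206 and 283 RPKM (0.45). Of 196 tested solute carriers 2 passed 1.5-fold on the higher side and 6 on the lower side. Over all tested genes these shares were 2.48% and 1.27%.

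Cell cycle genes other than CDCA8 had medians slightly below that of all genes. The medians were -0.11 over 36 kinetochore and spindle genes, -0.14 over 23 other G2 and M phase genes and -0.10 over 14 cytokinesis genes. They were -0.07 over 21 G1 and S phase genes and -0.05 over 44 DNA replication genes. NUSAP1 and CDK6 were the only genes of these 5 lists past 1.5-fold. CDK6 was at 11.6 and 18.9 RPKM (0.66), and CDC25A, the phosphatase that activates CDK2, was at 20.3 and 14.2 RPKM (-0.49). PLK1, a kinase of mitotic entry, was at 30.4 and 21.7 RPKM (-0.47), and TOP2A, topoisomerase II alpha, was at 71.5 and 54.2 RPKM (-0.39). ZW10, which brings dynein to kinetochores, was at 11 and 16.9 RPKM (0.58), and ECT2, the exchange factor that starts the cleavage furrow, was at 42.1 and 58.6 RPKM (0.47).

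Among 26 kinesins, KIF3C was at 2.65 and 5.14 RPKM (0.75), the only one past 1.5-fold, and KIF3B, its relative in the same family of transport motors, was at 18 and 12 RPKM (-0.55). CCNC, cyclin C of the Mediator kinase module, was at 38.2 and 18.9 RPKM (-0.98), and MED11, a head subunit, was at 10.9 and 22.0 RPKM (0.95). The median over 32 Mediator genes was 0.05, so these 2 stood apart from the rest, which lay between -0.20 (MED23) and 0.41 (MED26). In the processing of histone mRNA, SLBP, which binds its stem-loop, was at 32.7 and 17.3 RPKM (-0.88), and ERI1, a nuclease of the stem-loop, was at 10.4 and 7.31 RPKM (-0.46). Clustered histone genes had a median of 0.15 over 22 genes, with HIST2H2AC at 1.39 and 2.93 RPKM (0.72) and HIST1H2BG at 1.68 and 3.24 RPKM (0.66) at the upper end.

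Inhibitors of cyclin-dependent kinases lay on both sides. CDKN2B was higher, whereas CDKN1A (p21) was at 18.6 and 11.5 RPKM (-0.65). CDKN3 was at 71.9 and 50.7 RPKM (-0.49), CDKN2C at 11.6 and 8.28 RPKM (-0.44) and CDKN2A at 12.1 and 9.31 RPKM (-0.34). CDKN1B (-0.12) and CDKN2D (0.29) differed less. Over 23 p53 targets the median was -0.01, with GDF15, a secreted stress factor, at 29.9 and 53.6 RPKM (0.82) at one end and CDKN1A at the other.

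Stress and death genes also differed singly. The median over 31 integrated stress response genes was -0.08. ATF3 and PPP1R15A (0.64) were at least 1.5-fold higher, and TRIB3, a pseudokinase, was at 27.1 and 40.9 RPKM (0.58). CHAC1, which degrades glutathione, was at 6.15 and 3.16 RPKM (-0.78), and NUPR1, a nuclear stress protein, was at 93.1 and 56.8 RPKM (-0.70). Of 15 tested caspases and cell death regulators 10 had differences above 0, beside 55.1% of all tested genes, and 1 passed 1.5-fold in each direction. CASP4, an inflammatory caspase, was at 39.7 and 24.7 RPKM (-0.66). BCL2L1, which encodes the protective BCL-XL, was at 43.2 and 79.5 RPKM (0.86). The other protective members MCL1 (0.18) and BCL2L2 (0.34) were higher by less. The 9 tested members that promote death had differences between -0.39 (BID) and 0.41 (BOK), none past 1.5-fold.

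Markers linked to stem-like and fetal states of liver cancer did not share a direction. Of 11 tested stem cell markers, 8 were higher, beside 55.1% of all tested genes. Their median was 0.14, and KRT19 alone passed 1.5-fold. SOX9, a factor of bile duct and progenitor cells, was at 3.72 and 5.28 RPKM (0.41), and ANPEP, the marker CD13, was at 22.2 and 16.2 RPKM (-0.43). Of 12 oncofetal genes, GPC3, glypican 3, was at 131 and 83.5 RPKM (-0.64) and PLAC1, a placental protein, at 0.531 and 1.62 RPKM (0.77). Over 22 beta-catenin pathway genes the median was 0.01 (below 0 on the other 3 scales tried), and CCND1, cyclin D1, was at 37.9 and 50.3 RPKM (0.40).

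Among secreted and surface genes outside the liver lists, MMP24 was at 3.91 and 8.69 RPKM (0.98) and MMP7, matrilysin, at 6.81 and 12.7 RPKM (0.81), the 2 metalloproteases of 18 tested genes past 1.5-fold. IGFBP3, a carrier of insulin-like growth factors, was at 20.1 and 30.9 RPKM (0.60). VIM, vimentin, was at 114 and 151 RPKM (0.40), and GJB1, the liver connexin, was at 37.5 and 24.9 RPKM (-0.57). Over 20 epithelial and mesenchymal markers the median was 0.12. Over 17 tested genes of the MHC class I list the median was -0.03, and its 2 members at least 1.5-fold lower were MICB at 15.4 and 9.77 RPKM (-0.61) and ULBP3 at 1.12 and 0.206 RPKM (-0.81), ligands that activate natural killer cells. NR4A1, an early response nuclear receptor, was at 1.95 and 3.90 RPKM (0.73), and SAMD9, an interferon-responsive gene, was at 1.13 and 2.48 RPKM (0.70), while OASL, another such gene, was at 2.80 and 1.34 RPKM (-0.70).

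Large housekeeping families were close to the control. None of 75 cytosolic ribosomal protein genes (median -0.06), 77 oxidative phosphorylation subunits (-0.02), 46 proteasome genes (-0.04) or 31 SR and hnRNP genes (-0.05) reached 1.5-fold. PSMG1, a proteasome assembly chaperone, had the lowest difference of the proteasome genes at 56.4 and 37.6 RPKM (-0.57), and ATP5C1, a subunit of ATP synthase, that of the oxidative phosphorylation subunits at 203 and 151 RPKM (-0.43). Of 74 mitochondrial ribosomal protein genes only MRPL20 reached 1.5-fold, at 92.3 and 55.8 RPKM (-0.72).

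Of the 673 genes with a mean of at least 100 RPKM, 7 passed 1.5-fold on the higher side and 9 on the lower side, and none passed 2-fold. FTL, the ferritin light chain and the most abundant gene, was at 18122 and 15050.1 RPKM (-0.27). The aldo-keto reductase AKR1C1 was at 4497 and 3144 RPKM (-0.52) and AKR1C3 at 1054 and 667 RPKM (-0.66), and since the AKR1C genes are close paralogs their reads may be shared. AKR1B10 was closer to its control level, at 5758 and 5427 RPKM (-0.09). After quantile normalization the differences were -0.30 for AKR1C1, -0.58 for AKR1C3 and 0.0 for AKR1B10. NPM1, nucleophosmin, was at 1358 and 972 RPKM (-0.48), and SQSTM1, an autophagy receptor, was at 1098 and 821 RPKM (-0.42). On the higher side TMSB10 was at 1158 and 1679 RPKM (0.54) and TMSB4X at 308 and 461 RPKM (0.58), both of which hold actin monomers. S100A6, a calcium-binding protein, was at 1856 and 2224 RPKM (0.26), and AGR2, a disulfide isomerase of mucus-secreting cells, was at 136 and 252 RPKM (0.88).

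Some genes past 1.5-fold lie next to each other. Of 13 pairs within 50 kb of each other in GRCh38 whose members were both past 1.5-fold, 12 pairs had the same direction, among them CAV1 and CAV2, SERPINF2 and SERPINF1, RAB27B and CCDC68 (0.68), and JDP2 (0.67) and BATF (0.68). The pairs were picked by these differences, and the share over all neighbouring genes was not computed. Several of the 12 pairs overlap or are paralogs whose reads may be shared. The pair with opposite directions was SAMD4A and GCH1, the enzyme that starts tetrahydrobiopterin synthesis, at 22.1 and 11.3 RPKM (-0.91).

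In Huh7 cells CDCA8 was at 51.5 and 7.36 RPKM (-2.65). The 2-fold limit was passed there by 101 higher genes (0.873%) and 81 lower genes (0.7%). Of the 35 genes higher in Huh1, 30 were tested in Huh7, of which 27 had the same direction, and 11 were at least 2-fold higher there too, 31.4% of the Huh1 list and 10.9% of the Huh7 list. TPM4 had a difference of 1.96 in Huh1 and 1.73 in Huh7, and CAV1 had 1.45 and 1.16. Of the 19 lower genes, 16 were tested in Huh7, of which 14 had the same direction, and 10 were at least 2-fold lower there too, 52.6% and 12.3% of the lists. VTA1 was at -1.56 in Huh1 and -2.06 in Huh7, CKAP4 at -1.15 and -2.07, and LMNB1 at -1.10 and -1.59. Both lists were chosen by their Huh1 values, so the sizes in the 2 lines are not compared. The share of all genes with the same direction in both lines was not computed, so these counts have no baseline.

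Other members were past 2-fold in Huh1 and close to the control in Huh7, although no difference between the lines was tested. ANKRD1 had a difference of 1.27 in Huh1 and 0.19 in Huh7, where its level was higher (157 and 178 RPKM). THBS1 had 1.01 and 0.24, and TMED8 had 1.29 and 0.16. KRT80, DKK1, KRTAP19-5 and HIST1H3H were among the 5 genes with opposite signs in the 2 lines. CLDN2, FABP6, KRT4, MYEOV, TMEM139, KLF15, S100A9 and HIST1H4D did not reach 1 RPKM in either Huh7 library.

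Over the genes tested in both lines, list medians in Huh7 were 0.62 for caveola genes, 0.59 for the 19p12 cluster, -0.45 for plasma proteins and -0.34 for hepatocyte factors, each in the direction seen in Huh1. For the 7 keratins tested in both lines the median was -0.16 in Huh7 and 0.30 in Huh1. Other lists also had medians of opposite sign, among them cholesterol synthesis genes (-0.11 in Huh7 and 0.10 in Huh1) and cyclin-dependent kinase inhibitors (0.10 and -0.34). The lists with the same and with opposite signs were not counted.

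**Figure D5:**
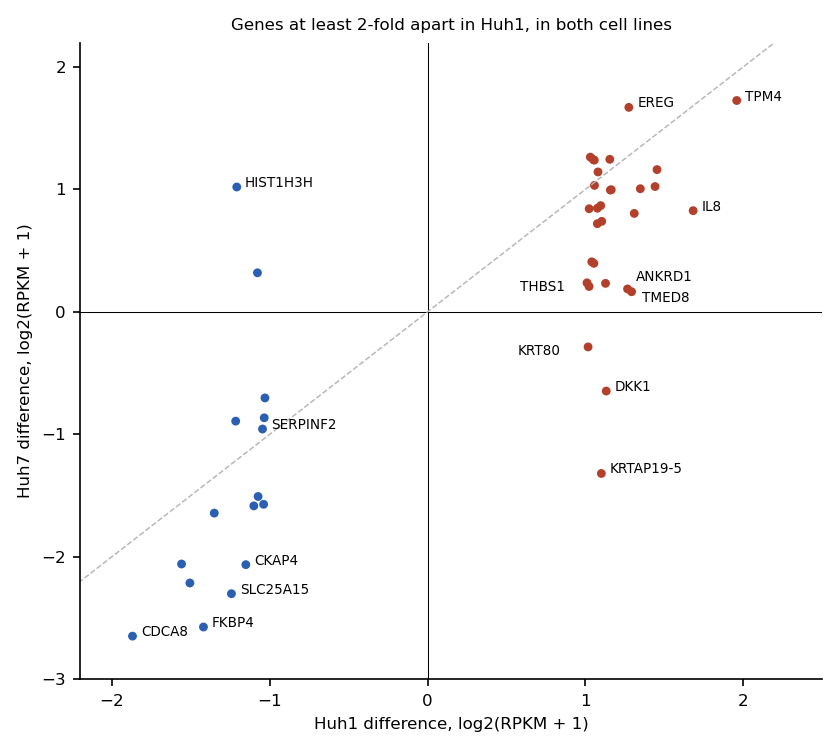
Difference in Huh7 (vertical axis) against the difference in Huh1 (horizontal axis), both log2(RPKM + 1), for the 46 genes at least 2-fold apart in Huh1 that were tested in both lines. Red points were higher and blue points lower in Huh1, and the dashed line marks equal differences. The genes were chosen by their Huh1 values, and 5 of the 46 points lie in the quadrants of opposite sign.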

How the data were processed

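The data are RNA-seq libraries, 1 for each cell line (Huh1, Huh7) and siRNA. The authors deposited RPKM values per RefSeq transcript, and the submitters' processing notes name CASAVA 1.8.2, TopHat2 2.0.9 and hg19. The mapped reads behind each scale were estimated from the product of low RPKM and transcript length that recurred most often, taken as 1 read, and 30.3% (NCsiRNA) and 29.9% (CDCA8-1siRNA) of low Huh1 values then lay within 0.05 of a whole read. Reads per gene rest on transcript lengths of GENCODE release 29 (17768 of 18398 rows matched by RefSeq identifier, 443 by symbol), which may differ from those the authors used, so they are approximate. Their sums exceeded the estimated mapped reads. Gene coordinates come from the same match and promoters from RefSeq. Differences were taken on log2(RPKM + 1) for genes with at least 1 RPKM in either Huh1 library and counted at 2-fold and 1.5-fold. Ratios have exact Clopper-Pearson 95% intervals, which like the limit of 3 reads behind a 0 cover counting error only. Alternatives were other pseudocounts, filters and scalings. Python 3.11.15, numpy 2.4.6, pandas 2.3.3, scipy 1.17.1 and matplotlib 3.10.9 were used, and the scripts were tested on simulated data.

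Named were CDCA8, genes at least 2-fold apart, up to 5 members of a list with the largest differences (all where 12 or fewer were tested), genes the study names, the 15 most abundant genes and the 10 largest changes in RPKM in each direction, of which not all are shown. The lists and members were chosen with earlier results of these data known, and other named genes were chosen after their values were seen. A few of the genes that the rule names are not reported here.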

Additional observations from a re-analysis of the deposited data

Results flagged for a closer look

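Several named genes were at least 1.5-fold apart in Huh1 and lay on the other side of 0 in Huh7. With 1 library a side in each line, the difference between the lines was not tested for any of them, and many of the Huh7 values are small. HIST1H3H had a difference of -1.21 in Huh1 and 1.02 in Huh7, and KRTAP19-5 had 1.10 and -1.32. Both are low genes with near-identical relatives. DKK1 had 1.13 and -0.65, and its Huh7 levels were 59.3 and 37.5 RPKM. CDKN1A had -0.65 and 0.51, with Huh7 levels of 3.66 and 5.63 RPKM.

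The remaining genes were closer to 0 in Huh7. KRT80 had 1.02 in Huh1 and -0.29 in Huh7. The YAP and TEAD targets CTGF (1.00 and -0.22) and AMOTL2 (0.73 and -0.16) were of this kind, as was the cavin gene SDPR (0.74 and -0.21). ERRFI1 had 0.59 and -0.08, JDP2 had 0.67 and -0.05, ABCA1 had -0.73 and 0.13, and ULBP3 had -0.81 and 0.04.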

How the results depend on the processing

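No paired analysis was possible because Huh1 holds 1 library for each siRNA, and for the same reason no replicate could be left out. A fit over both cell lines with the line as a block would describe Huh1 and Huh7 jointly and was not used here. The difference of CDCA8 lay between -1.87 and -2.02 under every alternative tried. The counts depended on the pseudocount. With 0.1 RPKM added, 107 genes were 2-fold higher and 57 lower in Huh1, 517 were 1.5-fold higher and 266 lower, and in Huh7 269 were 2-fold higher and 153 lower. With 0.5 RPKM added, 60 genes were 2-fold higher in Huh1. A smaller pseudocount weighs low genes more by construction. The other 30 values of counts and of CDCA8 stayed within 1.5 times or the counting interval, quantile normalization included (28 higher and 22 lower at 2-fold). Of 532 list medians under alternatives 527 stayed within the limit set for them, but that limit was too wide for this count to show stability. Medians that changed sign with a minimum of 5 RPKM, or with scaling to the upper quartile or the median ratio, still counted as within it. Of the values of named genes none changed sign among those at least 1.5-fold apart. Of 1801 values of named genes 54 moved by more than their counting error, 14 of them under quantile normalization. Abundant genes were among these, such as ALB (-0.36 to -0.13) and AKR1C1 (-0.52 to -0.30). The median of all genes moved by at most 0.03 under any scaling. Medians of lists near 0 took the other sign under some alternatives, as given beside them, and so did those of the ABC transporter, NF-kB, histone deacetylase, oncofetal, Fanconi and small RNA lists, and of the solute carriers (-0.01 after quantile normalization). Depth limits genes under 2 RPKM most, where the median counting SD was 0.16.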
